A study of Homo sapiens with 4 samples.

Results

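The genes described here are 10 members of the HSP70 family of molecular chaperones, taken by gene symbol: HSPA1A, HSPA1B, HSPA1L, HSPA2, HSPA4, HSPA4L, HSPA6, HSPA8, HSPA13 and HSPA14. All 10 were found among the 19749 genes of the deposited table, and all 10 had an adjusted p-value, as did 14812 genes in total. The study gave U87 cells, an established human glioblastoma line, either the vehicle DMSO (2 libraries) or the small molecule YZ129 at 5 µM for 24 h (2 libraries), and sequenced poly(A)-selected RNA. Its title places YZ129 in a search for inhibitors of the pathway from HSP90 through calcineurin to NFAT. Whether the 2 libraries per group are independent cultures is not labelled, so the spread behind the p-values may be technical. Which libraries set that spread is not stated: the mean levels cover 8 libraries, and 4 samples are described. In bulk RNA such as this, fewer cells of a kind and less RNA per cell cannot be told apart.

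HSP70 proteins bind short hydrophobic stretches of unfolded proteins and release them in a cycle driven by ATP. J-domain proteins start the hydrolysis of ATP, nucleotide exchange factors reopen the chaperone, and adaptors pass the client on to HSP90 or to ubiquitin ligases. The family holds constitutive members such as HSPA8 and stress-inducible ones such as HSPA1A, HSPA1B and HSPA6, whose promoters carry heat shock elements, arrays of the units GAA and TTC that the factor HSF1 binds. Inhibition of HSP90 is known to free HSF1.

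The deposited data were the authors' own comparison, with 1 log2 fold change, 1 standard error (SE) and 1 mean level per gene, and no value per library. No column names the numerator, and DMSO comes first in the comparison's name, which would make it DMSO over YZ129. Positive values were nevertheless taken to mean more RNA with YZ129, because heat shock genes other than the 10 members were mostly positive where they were called. Of 25 tested, 8 were called positive, among them BAG3, HSPH1 and HSPB8, and 1 was called negative in the authors' deposited table. HSPH1 belongs to the HSP110 branch of the family; without it, 7 of 24 were called positive and 1 negative. Under the opposite reading every direction below turns around, so the direction itself is not a finding, while sizes and p-values hold either way.

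The sequences show why these paralogs differ in how well short reads can tell them apart. A stretch of 75 bases of coding sequence from the nucleotide-binding domain (bases 22 to 96 of the HSPA1B coding sequence, GENCODE 29) is printed for 6 members, with capitals where a member differs from HSPA1B.
HSPA1B: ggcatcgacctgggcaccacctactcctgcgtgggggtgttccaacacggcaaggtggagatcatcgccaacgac
HSPA1A: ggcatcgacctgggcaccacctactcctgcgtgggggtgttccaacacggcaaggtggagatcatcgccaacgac
HSPA1L: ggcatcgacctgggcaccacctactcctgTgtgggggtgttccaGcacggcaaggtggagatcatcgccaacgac
HSPA2: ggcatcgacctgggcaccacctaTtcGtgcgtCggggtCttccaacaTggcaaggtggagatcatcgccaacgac
HSPA6: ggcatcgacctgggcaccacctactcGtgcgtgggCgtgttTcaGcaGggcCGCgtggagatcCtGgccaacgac
HSPA8: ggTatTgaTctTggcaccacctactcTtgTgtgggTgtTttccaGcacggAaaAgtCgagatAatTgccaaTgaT

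HSPA1A does not differ from HSPA1B in this stretch, HSPA1L differs at 2 bases, HSPA2 at 5, HSPA6 at 10 and HSPA8 at 16. Each is closer to HSPA1B here than over its whole coding sequence, so the stretch overstates the likeness. Over the whole coding sequence HSPA1A and HSPA1B differ at 4 of 1923 bases (99.8% identity). HSPA1B shares 80.9% of alignment columns, with gaps counted as differences, with HSPA1L, 80.6% with HSPA6, 79.9% with HSPA2 and 73.3% with HSPA8. The HSP110-type members HSPA4 and HSPA4L are 66.2% identical to each other and 42.9% and 42.8% identical to HSPA1B. HSPA14 (42.3%) and HSPA13 (39.9%) had the lowest values by this measure, which depends on length: the HSPA13 coding sequence has 1413 bases. Of the bases aligned to HSPA1B without gaps, 808 of 1313 were identical in HSPA13, 1102 of 1876 in HSPA4 and 829 of 1489 in HSPA14.

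The regions before the transcription starts of 3 members that were called are printed next, since they differ in their exact matches to the heat shock element. Each is the 250 bases before the start in RefSeq's annotation of GRCh38.p14, and capitals mark matches to GAANNTTC or TTCNNGAA (2 units) or to GAANNTTCNNGAA or TTCNNGAANNTTC (3 units).
HSPA6, chr1:161524290-161524539, plus strand: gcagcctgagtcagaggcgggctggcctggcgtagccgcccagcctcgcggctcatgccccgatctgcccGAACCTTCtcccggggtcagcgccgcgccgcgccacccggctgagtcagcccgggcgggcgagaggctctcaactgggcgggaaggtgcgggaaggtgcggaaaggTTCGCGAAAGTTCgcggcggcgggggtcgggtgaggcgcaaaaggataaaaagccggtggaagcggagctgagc
HSPA8, chr11:123062137-123062386, minus strand: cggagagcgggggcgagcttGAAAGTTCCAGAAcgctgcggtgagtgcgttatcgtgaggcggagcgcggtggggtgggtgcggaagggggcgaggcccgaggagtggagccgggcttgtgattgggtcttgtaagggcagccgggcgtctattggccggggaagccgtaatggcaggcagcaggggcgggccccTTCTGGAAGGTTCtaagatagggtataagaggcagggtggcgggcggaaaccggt
HSPA1B, chr6:31827488-31827737, plus strand: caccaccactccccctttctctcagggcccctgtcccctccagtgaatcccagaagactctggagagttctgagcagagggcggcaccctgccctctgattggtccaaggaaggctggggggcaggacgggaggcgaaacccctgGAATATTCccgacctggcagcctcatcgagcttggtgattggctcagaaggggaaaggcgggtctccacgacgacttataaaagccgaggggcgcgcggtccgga

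A promoter window (250 bases before to 50 after the start) was found for 9 members, all but HSPA14. HSPA8 held 2 matches to the 3-unit element, the nearer beginning 55 bases before the start, and HSPA6 held 1, beginning 74 bases before it. The 3-unit element occurs in 0.49% of all 35116 windows. A 2-unit match alone was found in HSPA1A, HSPA1B, HSPA1L and 1 of the 3 windows of HSPA4L, against 13.5% of all windows with 2 units in either order. Only exact, unbroken units were counted, so a longer element with an imperfect unit is not seen as such. In HSPA1A and HSPA1B another GAA stands before the match in the same spacing, across a unit (CCC) that does not match. The sites, with 6 bases on each side, read as follows.
HSPA1A, chr6:31815431-31815450, plus strand: accctgGAATATTCccgacc
HSPA1B, chr6:31827627-31827646, plus strand: cccctgGAATATTCccgacc
HSPA1L, chr6:31815431-31815450, minus strand: ggtcggGAATATTCcagggt
HSPA4L, chr4:127782146-127782165, plus strand: agatctTTCTCGAAcccgca

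HSPA1L and HSPA1A start back to back, their windows share 241 bases, and the HSPA1L match is the HSPA1A match read on the other strand. HSPA2, HSPA4 and HSPA13 had no match in their windows. The box CCAAT (or ATTGG on the other strand), bound by NF-Y, occurred 2 times each in HSPA1A, HSPA1B, HSPA1L and HSPA8, 1 time in HSPA2 and in 1 window of HSPA4L, and 0 times in HSPA4, HSPA6 and HSPA13. Of all windows 34.6% hold it at least 1 time. A match says only that these letters are present in the window.

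**Figure D1:**
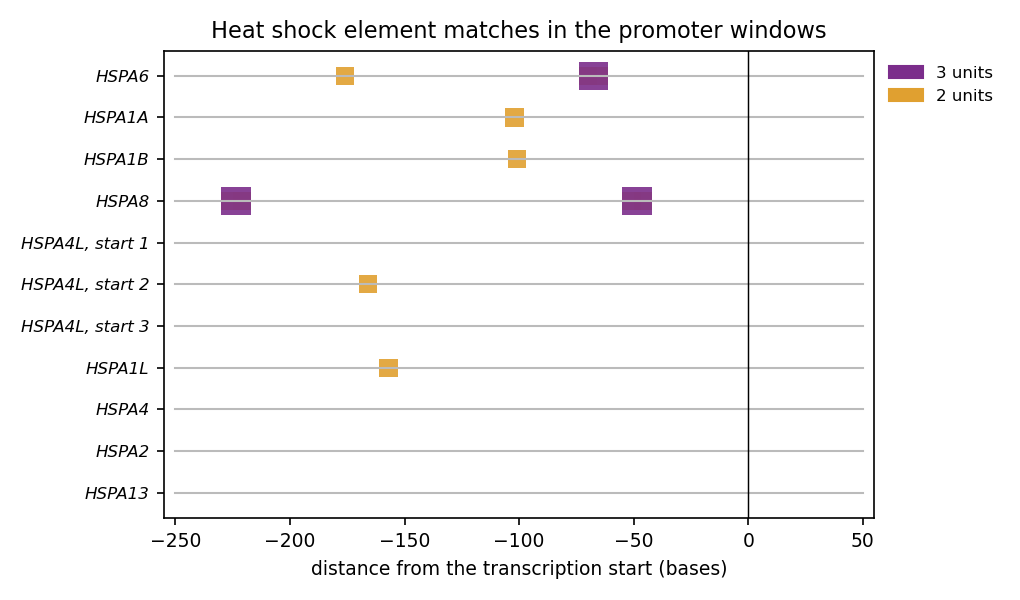
Matches to the heat shock element in the promoter windows of the 9 members that have one; the x axis is the distance from the transcription start in bases, and members are ordered by log2 fold change from the highest down. Purple boxes are 3-unit matches (HSPA6 and HSPA8), orange boxes are 2-unit matches outside them, and HSPA4L has 3 annotated starts.

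In the comparison itself the inducible HSPA6 had the largest rise, the inducible HSPA1B and the constitutive HSPA8 rose less, and the HSP110-type HSPA4L rose by the smallest amount that passed. Of the 10 members 4 rose at the authors' adjusted p under 0.05 and 0 fell, in a table whose columns are those of DESeq2; at an unadjusted p under 0.05 the counts were 5 positive and 1 negative, where 10.5% of all tested genes were positive, 14.5% negative and 24.9% either. Over all 14812 tested genes 5.24% were called positive, 7.64% negative and 12.9% in either direction. At an adjusted p under 0.01, 3 members rose, against 3.01% of all tested genes (4.71% negative, 7.72% in either direction). With a log2 change of at least 1 as well as an adjusted p under 0.05, 1 member rose, against 1.61% of all tested genes (1.17% negative, 2.79% in either direction). The balance over all genes moved with the centre: 776 were called positive and 1132 negative as deposited, 954 and 884 after recentring on the median of all tested genes, and 920 and 804 after recentring on the median of the same decile of mean level. The median log2 fold change was 0.42 for the 10 members and -0.05 for all tested genes. The members were chosen with earlier results of these data known, so counts and median are a description.

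**Figure D2:**
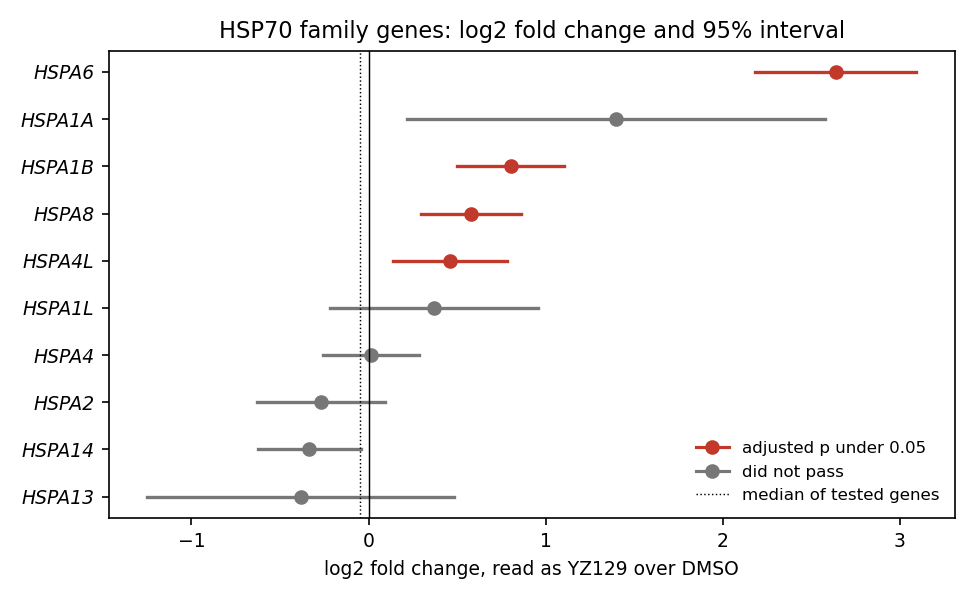
Log2 fold change of each member, read as YZ129 over DMSO (points), with its 95% interval from the deposited SE (lines); red members passed an adjusted p of 0.05 and the dotted line is the median of all tested genes. HSPA6 at 2.64 lies apart from the other called members, which lie between 0.46 and 0.80.

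HSPA6, the strictly inducible member that unstressed cells hardly express, had a log2 fold change of 2.64 ± 0.23, or 6.22-fold, with a 95% interval of 4.54-fold to 8.54-fold (adjusted p = 4.56e-27, authors' deposited table). It ranked 13 from the top among all tested genes by log2 fold change and 28 by p-value. Its mean level was 617 normalised reads, or 260 per kilobase of transcript. HSPA6 was thus near the top of the whole table in change while at a moderate level. Of the 50-base windows of its transcript 45.5% also occur in the pseudogene HSPA7, which the authors' deposited table lists with a mean level of 0.765 and no adjusted p. A read of that length from such a window fits both genes, and the sources used here do not say how such reads were counted.

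HSPA1B and HSPA1A encode the main inducible HSP70. HSPA1B had 0.80 ± 0.15, or 1.75-fold with an interval of 1.42-fold to 2.15-fold (adjusted p = 9.06e-06, authors' deposited table). HSPA1A had a larger value with a much larger error, 1.40 ± 0.60, and did not pass (adjusted p = 0.111, authors' deposited table). At its mean level of 15.6 the moderation of fold changes towards 0 understates its change. Recentred on the median of its decile of mean level, the value was 1.08. The values of the 2 copies differ by 0.59 with a combined SE of 0.62, so they lie within 1 combined SE of each other. The combined SE here is the root of the summed squares of both SEs, which treats the errors of 2 genes as independent, and it is given with no p-value.

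The mean levels of the 2 copies were far apart: 2210 for HSPA1B and 15.6 for HSPA1A in the authors' deposited table. Per kilobase of transcript these are 877 and 6.29 normalised reads. Of the 50-base windows of the HSPA1A transcript 72.6% occur unchanged in HSPA1B, and of its 100-base windows 69.9%. Of the windows of the HSPA1B transcript 73.5% (50 bases) and 72.7% (100 bases) occur in another gene, mostly HSPA1A. Most reads of these lengths fit both copies, and the split of the level between them is uncertain. The same holds for the fold changes and for the call of HSPA1B as that of 1 copy. At its SE HSPA1A would have needed a change of 1.64 on the log2 scale, or 3.12-fold, to be called, while HSPA1B needed 0.42.

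**Figure D3:**
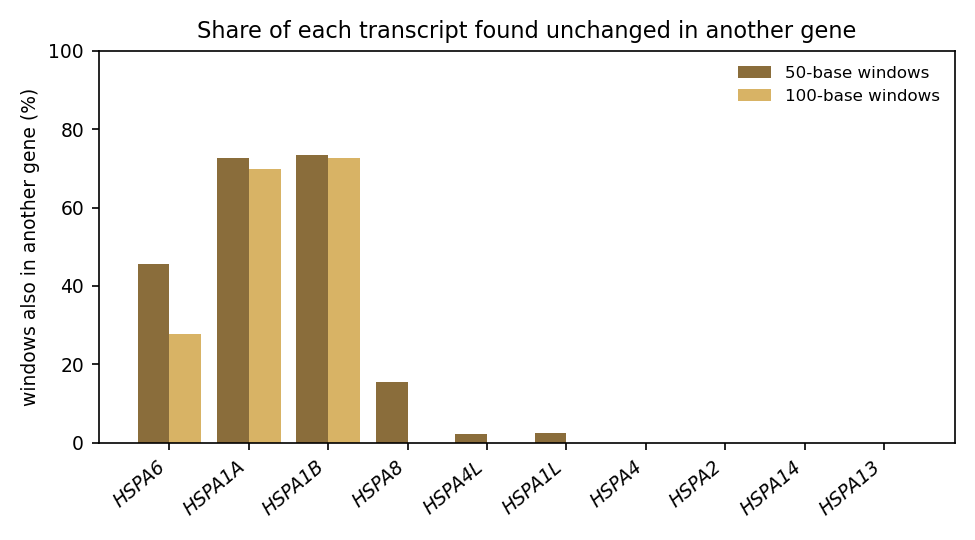
Percent of the 50-base (dark) and 100-base (light) windows of each member's transcript that occur unchanged in a transcript of another gene of GENCODE 29, with members ordered by log2 fold change. HSPA1A and HSPA1B share about the same large part with each other, HSPA6 shares 45.5% and 27.6% with HSPA7, and the 4 members at the right share none.

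HSPA1L, a copy in the same gene cluster known for its expression in testis, had 0.37 ± 0.30 and did not pass (adjusted p = 0.472, authors' deposited table). Its mean level was 93.6, or 36.8 per kilobase, and only 2.44% of its 50-base windows occur in another gene. The interval runs from 0.862-fold to 1.94-fold, which includes the value of HSPA1B. HSPA2, another member best known from male germ cells, had a mean level of 312 and -0.27 ± 0.18 (adjusted p = 0.377, authors' deposited table). Its interval of 0.646-fold to 1.07-fold lies wholly below that of HSPA8.

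HSPA8, the constitutive cytosolic HSC70, was the most abundant member, with a mean level of 79122, or 32124 per kilobase. It rose 1.49-fold (0.58 ± 0.14, interval 1.23-fold to 1.82-fold, adjusted p = 0.00125, authors' deposited table). It took most of the 115073 normalised reads that the 10 members had in sum. Of its 50-base windows 15.4% occur in other genes, the most in the pseudogene HSPA8P1, and of its 100-base windows 0%. HSPA6 exceeded HSPA8 by 2.06 in log2 fold change with a combined SE of 0.27, and HSPA1B exceeded HSPA8 by 0.22 with a combined SE of 0.21.

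HSPA4 and HSPA4L belong to the HSP110 branch, whose proteins act as nucleotide exchange factors for HSP70. HSPA4L rose 1.38-fold (0.46 ± 0.16, interval 1.10-fold to 1.72-fold, adjusted p = 0.0409, authors' deposited table), where 0.45 was needed at its SE. That call was lost at an adjusted p of 0.01 and when p-values were adjusted over every gene of the table (adjusted p = 0.0539; 0.0103 to 0.0539 over the alternatives). HSPA4, at the second highest level of the 10 members per kilobase (3656), had 0.01 ± 0.14 with an interval of 0.835-fold to 1.22-fold (adjusted p = 0.968, authors' deposited table). HSPA4L exceeded HSPA4 by 0.45 with a combined SE of 0.22, and a 1.30-fold change of HSPA4 would have been called at its SE.

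The remaining cytosolic gene of the branch, HSPH1, is not among the 10 and is part of the list used to read the direction. Its deposited value of 0.88 ± 0.14, or 1.84-fold (adjusted p = 1.58e-08, authors' deposited table), was higher than that of HSPA4 by 0.87 with a combined SE of 0.20 and than that of HSPA4L by 0.42 with a combined SE of 0.21. The cytosolic genes of the branch thus held 1 near 0 and 2 that were called positive.

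HSPA14 and HSPA13 had the lowest values, and neither passed. HSPA14, which forms the ribosome-associated complex with the J-domain protein DNAJC2, had -0.33 ± 0.15 (unadjusted p = 0.0248, adjusted p = 0.126, authors' deposited table). Its partner DNAJC2 rose (0.53 ± 0.15, adjusted p = 0.00524, authors' deposited table). HSPA8 exceeded HSPA14 by 0.91 with a combined SE of 0.21. Neither subunit of the nascent-chain binding complex passed, with NACA at 0.05 ± 0.16 and BTF3 at -0.01 ± 0.15 in the authors' deposited table.

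HSPA13, a member of the microsomal fraction that lacks the substrate-binding domain, had -0.38 ± 0.44 (adjusted p = 0.641, authors' deposited table). Its interval, from 0.42-fold to 1.40-fold, was wide, although the mean level was 10720. The SE was 2.96 times the median of 0.149 for the 1482 tested genes of the same decile of mean level, and 14 of these had a larger one. Above a mean level of 1000, the SEs of 7377 tested genes fell into 2 bands with none between 0.257 and 0.376. The upper band held 197 genes (2.67%), HSPA13 among them, and 0 of these were called, against 14.3% of the lower band. At its SE a change of less than 2.30-fold would not have been called, so nothing smaller could be detected for HSPA13. The library or libraries behind that spread cannot be named from a table without values per library.

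**Figure D4:**
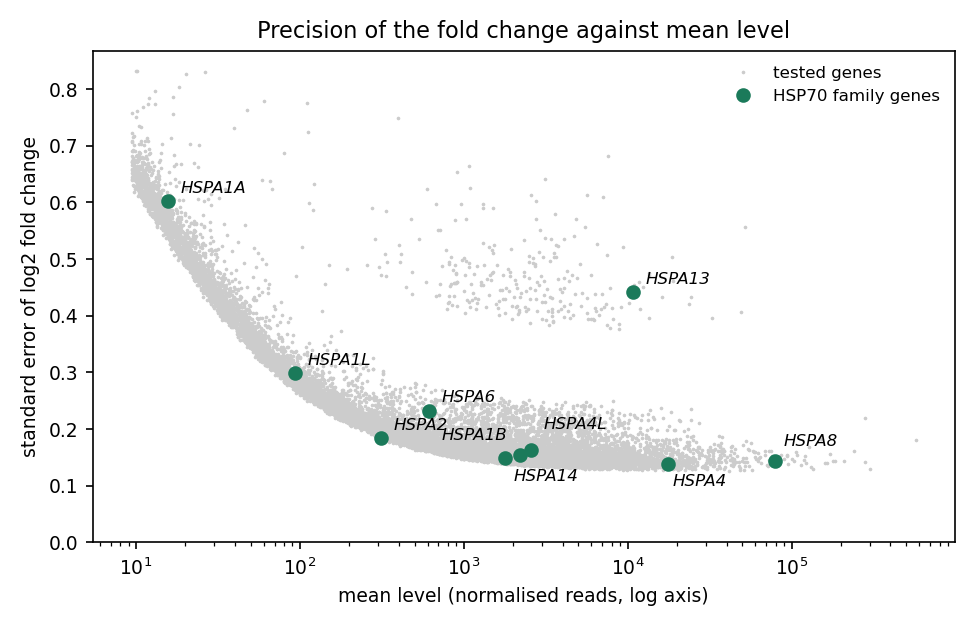
Standard error of the log2 fold change (y axis) against mean level in normalised reads (x axis, log scale) for all tested genes (grey) and the 10 members (green). HSPA13, at 0.44, lies in the detached upper band, while the other 9 members lie on or near the main one.

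Ordered by log2 fold change the family read HSPA6, HSPA1A, HSPA1B, HSPA8, HSPA4L, HSPA1L, HSPA4, HSPA2, HSPA14 and HSPA13. Of the 9 pairs of neighbours in that order 5 differed by less than 1 combined SE and 0 by more than 2. Differences over larger steps were clearer: HSPA6 exceeded HSPA1B by 1.83 with a combined SE of 0.28, and HSPA8 exceeded HSPA2 by 0.85 with a combined SE of 0.23. By mean level per kilobase the order was another one, with HSPA8 first, then HSPA4 (3656), HSPA13 (2690), HSPA14 (941), HSPA1B (877), HSPA6 (260), HSPA4L (236), HSPA2 (113), HSPA1L (36.8) and HSPA1A (6.29). These levels have no error in the deposited table, and each averages 8 libraries although only 4 samples are described. They also depend on the 1 transcript length taken per gene. That of HSPA4L was 10790 bases, and before division its mean level was 2551, against 2210 for HSPA1B and 617 for HSPA6. With 1 comparison there is no pattern over samples by which other genes could be called alike.

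Of 5 other tested HSP70 and HSP110 genes HSPH1, which helped to read the direction, was called positive and 0 fell. At an unadjusted p under 0.05 in the authors' deposited table, 1 was positive and 2 were negative. Over all tested genes 12.9% were called and 24.9% had an unadjusted p under 0.05, and with 5 genes the count is too small to set apart from these shares. HSPA5, the chaperone of the endoplasmic reticulum, had -0.34 ± 0.14 (adjusted p = 0.0908), and the mitochondrial HSPA9 had 0.01 ± 0.14 (adjusted p = 0.987), both in the authors' deposited table. HSPA8 exceeded HSPA5 by 0.92 with a combined SE of 0.20 and HSPA9 by 0.57 with a combined SE of 0.20. The reticulum's HSP110, HYOU1 (-0.17 ± 0.15), and the atypical HSPA12A (-0.37 ± 0.15, adjusted p = 0.0848) were not called either in the authors' deposited table. HSPA7 and HSPA12B, at mean levels of 0.765 and 4.99, had no adjusted p there.

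Among the genes that drive the HSP70 cycle, DNAJA1, DNAJA4, DNAJB1, DNAJB4, BAG3 and STIP1 were themselves used to read the direction, so their sign is no result. Of 20 J-domain genes 4 were called positive and 0 negative, with a median of 0.05. At an unadjusted p under 0.05 in the authors' deposited table, 6 were positive and 0 negative, counting DNAJA1, DNAJB1 and DNAJB4. Of all tested genes 10.5% were positive at that threshold, 14.5% negative and 24.9% either. The 4 called are 20% against 5.24% of all tested genes, a share that counts DNAJA1 and DNAJB4, which helped to read the direction. Of the 16 that did not serve to read the direction, 2 rose, DNAJC2 and DNAJB2. Over all tested genes 5.24% were called positive and 12.9% in either direction, and a count of 2 is too small to set apart from these shares. The 4 called genes were DNAJA1 (0.63 ± 0.15), DNAJC2, DNAJB4 (0.88 ± 0.27) and DNAJB2 (0.45 ± 0.16, adjusted p = 0.0452) in the authors' deposited table. DNAJB1, the classical J-domain partner of inducible HSP70, had 0.39 ± 0.14 and was not called (adjusted p = 0.0568, authors' deposited table). Of 10 nucleotide exchange factors outside the HSP110 branch 1 was called positive and 0 negative. Over all tested genes 5.24% were called positive and 12.9% in either direction. At an unadjusted p under 0.05 in the authors' deposited table, 2 were positive, BAG3 among them, and 0 negative. The shares of all tested genes were 10.5% positive, 14.5% negative and 24.9% either. With 10 genes the counts are too small to set apart from these shares. The called gene was BAG3 (0.99 ± 0.14, 1.98-fold), which links HSP70 to selective autophagy, in the authors' deposited table.

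Adaptors and heat shock factors had 0 called genes, in lists too small to set apart from the background of 12.9% called. Of 10 adaptors and ligases 0 passed by the authors' adjusted p (0 positive and 1 negative at an unadjusted p under 0.05). Among them were STIP1, which bridges HSP70 and HSP90 (0.04 ± 0.16), and the ligase STUB1 (-0.30 ± 0.16) in the authors' deposited table. Of 5 heat shock factors and their regulators 0 passed by the authors' adjusted p (0 at an unadjusted p under 0.05). HSF1 had -0.01 ± 0.16 in the authors' deposited table. Over all tested genes 24.9% had an unadjusted p under 0.05, 10.5% positive and 14.5% negative. The medians of these lists, -0.08 and -0.01, lie close to the -0.05 of all tested genes.

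**Figure D5:**
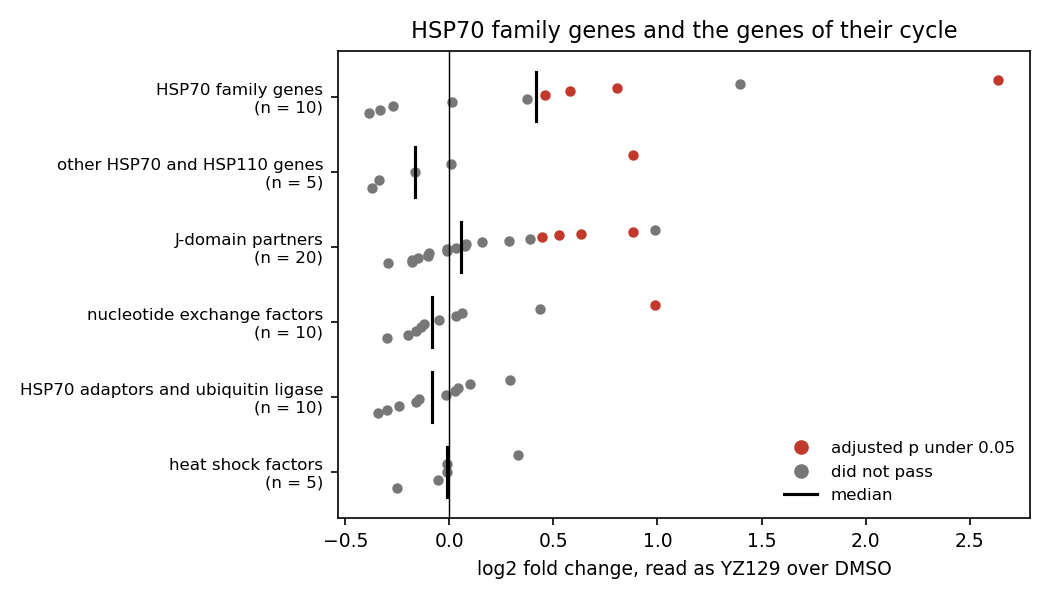
Log2 fold change, read as YZ129 over DMSO, of the tested genes of each list (points; red passed an adjusted p of 0.05) with the list's median (black bar). The 10 HSP70 members reach furthest to the right, through HSPA6 at 2.64, and the adaptors and heat shock factors hold no called gene.

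Of the markers of the labelled cell type, VIM and CD44 were abundant, with mean levels of 298885 and 134994 in the authors' deposited table. The glial GFAP was low at 52.2, and S100B (1.12) and the stem cell factor SOX2 (0.851) were near 0. Defining genes of other cell types were near 0 as well, with mean levels of 2.28 for the leukocyte gene PTPRC, 1.23 for the epithelial CDH1 and 3.90 for the neuronal RBFOX3 in the authors' deposited table. Other genes of these lists were higher there, up to 12821 in the blood and endothelium list, 1627 in the neuronal list and 93.7 in the epithelial list. Library size factors recovered from the table lay between 0.852 and 1.17 over 8 libraries, and which of them belong to the 4 samples described is unknown. Of 8 tested glial and glioblastoma markers 3 fell, namely NES, VIM and CD44, where 7.64% of all tested genes were called negative, and the neuronal SNAP25 fell too (-1.43 ± 0.17, authors' deposited table). OLIG2 of the same list went the other way without passing (0.82 ± 0.33, adjusted p = 0.0790, authors' deposited table). Their part in the HSP70 results was not tested. The depth in reads is unknown.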

How the data were processed

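U87 libraries given DMSO (2) or YZ129 (2) were grouped by their titles. Of tools and builds, hg19, Cuffdiff, Cufflinks 2.2.1 and TopHat2 2.0.12 appear in the submitters' processing notes, without roles. Per the file headers the columns match DESeq2 output; the read counter and annotation were not stated. The deposited mean level is a normalized signal (reads over library size factors). The deposited log2 fold changes and SEs are on the log2 scale. The deposited score equals fold change over SE, the deposited p-value is its two-sided normal p, and the deposited adjusted p-value is Benjamini-Hochberg over 14812 genes; each was recomputed. The other 4937 genes, with mean levels up to 9.43, had none.

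Sums of 8 steps, 1 per library, met the mean level of 525 of 525 genes with 2 reads (tolerance 1e-07), so the mean covers 8 libraries; whether all 8 entered the SEs was not stated. Those 525 genes had changes of at most 0.58, so fold changes were moderated towards 0 and understate those of low genes.

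Calls are the authors' adjusted p under 0.05; no new fit was possible without values per library. Members, lists and the rule for named genes (all members, other HSP70 and HSP110 genes, up to 3 called genes with the smallest adjusted p per list, and textbook partners) were chosen with earlier results of these data known. One gene of the list used to read the direction is not reported here. Intervals are 95%, from the SE. Each member's transcript is the one tied to RefSeq with the longest coding sequence (GENCODE 29). Coding sequences were aligned globally (Biopython 1.88), and windows of 50 and 100 bases were matched on the same strand against all transcripts. Promoters come from RefSeq on GRCh38.p14, not the build hg19 of the notes. The adjustment, the recentring and the recovery of steps were tested on simulated data. Python 3.11.15, numpy 2.4.6 and pandas 2.3.3 were used.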

Additional observations from a re-analysis of the deposited data

How the results depend on the processing

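Besides the deposited calls up to 6 alternatives were run for each of the 10 members and each list; HSPA1A and HSPA1L fall below the level minimum of 100 in one. HSPA6 kept its call under all 6 and no member reversed its sign. With calls limited to a log2 change of at least 1, only HSPA6 stayed (1 member), since HSPA1B (0.80), HSPA8 (0.58) and HSPA4L (0.46) are smaller; the other HSP70 genes, J-domain genes, exchange factors, partners of HSPA14 and heat shock genes then had 0 calls, also 0 negative ones. At an adjusted p under 0.01, 3 members were called, without HSPA4L (0.46), and 2 J-domain genes. With p-values adjusted over every gene, 3 members were called, again without HSPA4L (0.46, adjusted p = 0.0539). Recentred on the median of all tested genes, or of the same decile of mean level, 4 members stayed called positive calls rose from 1 to 2 in the exchange factors, from 4 to 5 or 6 in the J-domain genes and from 8 to 9 in the heat shock genes; calls over all genes went from 776 positive and 1132 negative to 954 and 884, or 920 and 804. Adjusted p under 0.01 gave 446 and 698 over all genes, and a log2 change of at least 1 gave 239 and 174. HSPA1A did not pass under any alternative that tested it (adjusted p 0.0978 to 0.282). No paired analysis was possible because the table holds no values per library; for the same reason no library could be left out.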
